A study of Mus musculus with 18 samples.

Results

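Proteasome genes were taken as all genes of the deposited expression table whose symbol begins with Psm, then has a letter from a to g, then a number. This gave 50 of the 22708 genes in the table, on 16 chromosomes, each measured in 18 samples of sorted intestinal eosinophils. By their known roles, 7 encode alpha subunits and 7 encode beta subunits of the proteasome's core, and 3 encode inducible beta subunits. The regulatory particle accounts for 6 ATPases and 11 other subunits, and 3 and 4 genes encode chaperones that help to assemble the regulatory particle and the core. A further 4 genes encode activators and 1 an inhibitor. The remaining 4 are *Psma8*, an alpha subunit of the testis, *Psmb11*, a beta subunit of the thymus, *Psme2b*, a copy of the activator gene *Psme2*, and *Psmc3ip*. The last encodes a recombination factor, was matched by its symbol and is not a proteasome gene.

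Small intestinal eosinophils of C57/BL6 mice were isolated by surface SiglecF and CD11b, absent MHC-II and high side scatter, and their total RNA was sequenced in bulk with single-ended reads. The samples comprise 6 labelled wildtype (WT), 6 labelled Ahr knockout (*Ahr*-/-) and 6 labelled Ahrr knockout (*Ahrr*-/-), each group with 3 males (M1 to M3) and 3 females (F1 to F3). *Ahr* encodes the aryl hydrocarbon receptor (AHR), a transcription factor activated by ligands from diet and microbes, and *Ahrr* encodes its repressor, so the comparisons ask which transcripts differ when one or the other gene is lost. The labels give no age, the study's methods state 6 to 14 wk for its mice, *Ahr*-/- and WT mice were neither littermates nor cohoused, and the methods do not describe the *Ahrr*-/- mice, so that genotype cannot be told apart from litter and cage.

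The proteasome is the protease that removes proteins tagged with ubiquitin. Its core, the 20S particle, is a barrel of alpha and beta rings whose cutting sites lie in the beta subunits encoded by *Psmb5*, *Psmb6* and *Psmb7*, while the 19S regulatory particle binds the tag and its ATPases unfold the protein and feed it into the barrel. In immune cells, and under interferon gamma in most cells, *Psmb8*, *Psmb9* and *Psmb10* supply alternative cutting subunits that form the immunoproteasome, and the activator PA28, built from *Psme1* and *Psme2*, can cap the core, both known for making the peptides that MHC class I presents.

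The deposited values are on a variance-stabilized log2 scale whose floor, 5.02, corresponds to 0 counts. The values turned back into whole counts in 100% of cases (tolerance 0.0001), with totals per sample of 3842977 to 8149200 in WT, 6581818 to 10284124 in *Ahr*-/- and 8788867 to 12046933 in *Ahrr*-/-. Each WT library was below each *Ahrr*-/- library in total count, while the *Ahr*-/- range overlapped both. The part of depth in the differences between genotypes was not tested. The level of *Ahr* was 13.40, 13.76 and 14.40 (lowest, median and highest sample) in WT, 14.15, 14.55 and 14.67 in *Ahr*-/-, and 13.03, 13.51 and 14.42 in *Ahrr*-/-, so that samples labelled *Ahr*-/- had no less of its transcript than WT. By limma *Ahr* differed by -0.61 for WT minus *Ahr*-/- (adjusted p 0.0557) and by 0.20 for WT minus *Ahrr*-/- (0.820). For *Ahrr*-/- minus *Ahr*-/- it differed by -0.82 (0.0296). *Ahrr*, a gene that AHR induces, was at 9.79, 10.12 and 10.39 in WT, at 5.02, 5.25 and 5.79 in *Ahr*-/- and at 9.95, 10.37 and 10.93 in *Ahrr*-/-. Its level was below that of WT in every *Ahr*-/- sample (limma difference 4.83, adjusted p 4.95e-12) and no lower than in WT in those labelled *Ahrr*-/- (difference, WT minus *Ahrr*-/-, -0.28, adjusted p 0.683). Groups are named here as labelled, and counts over a whole gene do not show whether its protein is made.

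A few libraries stood apart. With 2464 and 3014 genes at a count of 0, WT F3 and *Ahr*-/- F3 had far fewer such genes than the other 16 libraries, which had 5472 to 7562. In *Ahrr*-/- M1, 10 genes held 23.5% of all counts, the highest share but close to the 21.6% of *Ahrr*-/- F2, with the lowest library at 10.99%. *Ahrr*-/- M1 also had the highest level of most proteasome genes, as described with the values by sample, and results are given with and without it where they rest on it.

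The sorted cells carried eosinophil markers. The most abundant of 10 markers listed was *Alox15*, a lipoxygenase gene, with a median level of 14.08 in WT, 14.61 in *Ahr*-/- and 14.00 in *Ahrr*-/-, and *Siglecf*, the gene of the sorting marker, had medians of 11.09, 11.42 and 10.79. The genes of the granule proteins *Epx*, *Ear1*, *Ear2* and *Ear6* were near the lowest value in every group, and *Ear6* was at a count of 0 in all *Ahrr*-/- samples. Of the 6 markers that could be tested, limma called *Prg2* (difference, WT minus *Ahr*-/-, -2.30) and *Alox15* (-0.58) between WT and *Ahr*-/-, with a median difference of -0.36, and called none between WT and *Ahrr*-/- (0 at an unadjusted p below 0.05, 0 by voom, median 0.32). Between *Ahrr*-/- and *Ahr*-/- it called *Siglecf* (-0.72), *Il5ra* (-0.75), *Prg2* and *Alox15*, all lower in *Ahrr*-/-, with a median of -0.74. The whole list summed to a median of 0.533% of counts in WT, 0.622% in *Ahr*-/- and 0.479% in *Ahrr*-/-, and in bulk RNA fewer cells of a type and less RNA per cell cannot be told apart.

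Markers of other cells were found too. The 8 Paneth and goblet cell markers, led by *Lyz1*, summed to a median of 0.154% of counts in WT, 0.110% in *Ahr*-/- and 0.452% in *Ahrr*-/-, and the highest summed normalized count of all 18 samples was 72811 in *Ahrr*-/- M1. In that list 3 markers were higher in WT than in *Ahr*-/- (*Muc2* by 1.12), none passed between WT and *Ahrr*-/- (4 at an unadjusted p below 0.05 by limma and 4 by voom), and 7 were higher in *Ahrr*-/- than in *Ahr*-/-, with median differences of 0.71, -0.81 and 1.57. The 8 enterocyte markers, led by *Epcam*, reached medians of 0.0390%, 0.0399% and 0.112% and were also highest in *Ahrr*-/- M1, at a summed normalized count of 13556, with *Epcam* alone called, between *Ahrr*-/- and *Ahr*-/- (difference 1.12), and with medians of 0.14, -0.82 and 0.98. The 12 pancreatic acinar markers, led by *Ctrb1*, summed to 0.0160%, 0.000489% and 0.000748%, with *Prss1* at 0 in WT and *Ahr*-/- and with 3 of 7 called higher in WT than in *Ahr*-/- (*Ctrb1* by 2.74, list medians 1.55, 1.09 and 0.46). Of these 7, voom called 1. Of the macrophage and dendritic cell markers, led by *Itgax*, *Cd68* was higher (0.49) and *Itgax* lower (-0.42) in WT than in *Ahr*-/-, and 2 were higher and 1 lower in *Ahrr*-/- than in *Ahr*-/- (medians -0.05, -0.72 and 0.71). Between genotypes, neutrophil markers, led by *S100a9*, were called in both comparisons with *Ahrr*-/-, with *S100a8* (-2.06) and *S100a9* (-2.10) lower in WT and both also higher than in *Ahr*-/-, while *Elane* was at 0 in WT and *Ahr*-/- (medians -0.28, -1.22 and 0.94). *Jchain* of the B and plasma cell list was higher in *Ahrr*-/- than in *Ahr*-/- (3.20, list medians 0.01, -0.44 and 0.20). Of 7 markers of dividing cells, led by *Mki67*, *Top2a* was higher in WT than in *Ahr*-/- (0.92) and 4 were higher in *Ahrr*-/- than in *Ahr*-/- (medians 0.49, -0.21 and 0.60). In the fibroblast and endothelium list, led by *Pecam1*, 1 gene was higher in WT and 2 were higher in *Ahrr*-/- than in *Ahr*-/- (medians 0.22, -0.73 and 0.88). Between WT and *Ahrr*-/- the enterocyte, acinar, macrophage, B cell, dividing cell and fibroblast lists had no call (limma, 4, 5, 4, 2, 0 and 4 at an unadjusted p below 0.05, 2, 2, 3, 1, 0 and 2 by voom). The 1 mast cell marker tested, *Kit*, did not pass the test in any of the 3 comparisons between genotypes (limma, 0 at an unadjusted p below 0.05, 0 by voom), with differences of -0.41, -0.20 and -0.21. The part of these cells in the values of the proteasome genes was not tested.

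Compared per kilobase of exon, the proteasome genes spanned a wide range of levels, shown in the plot of normalized count per kb. *Psme1*, the alpha subunit of PA28, had the highest mean over the 18 samples, 767 per kb. The 7 alpha subunits of the core lay between 159 (*Psma2*) and 489 (*Psma5*) with a median of 222. The 7 standard beta subunits ran from 57.3 (*Psmb7*) to 342 (*Psmb4*) with a median of 195, a 5.97-fold range of count per kb. Lengths here are those of all annotated exons merged, which can exceed the length of the transcript a cell makes, so order and ratios between genes depend on the annotation. The inducible beta subunits were at 145 for *Psmb8*, below each alpha subunit, at 238 for *Psmb9* and at 374 for *Psmb10*. In the 19S particle the 6 ATPases lay between 63.4 (*Psmc2*) and 240.5 (*Psmc5*, median 116), and the 11 other subunits between 22.9 (*Psmd3*) and 225 (*Psmd14*, the enzyme that clips ubiquitin off, median 97.7). Assembly chaperones of the 19S particle ran from 9.78 (*Psmd9*) to 117 (*Psmd10*, median 24.5). Those of the core ran from 10.1 (*Psmg3*) to 82.5 (*Psmg4*, median 46.0). *Psmf1*, the inhibitor PI31, was at 33.0, and *Psme3*, the nuclear activator subunit PA28 gamma, at 134.

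**Figure D1:**
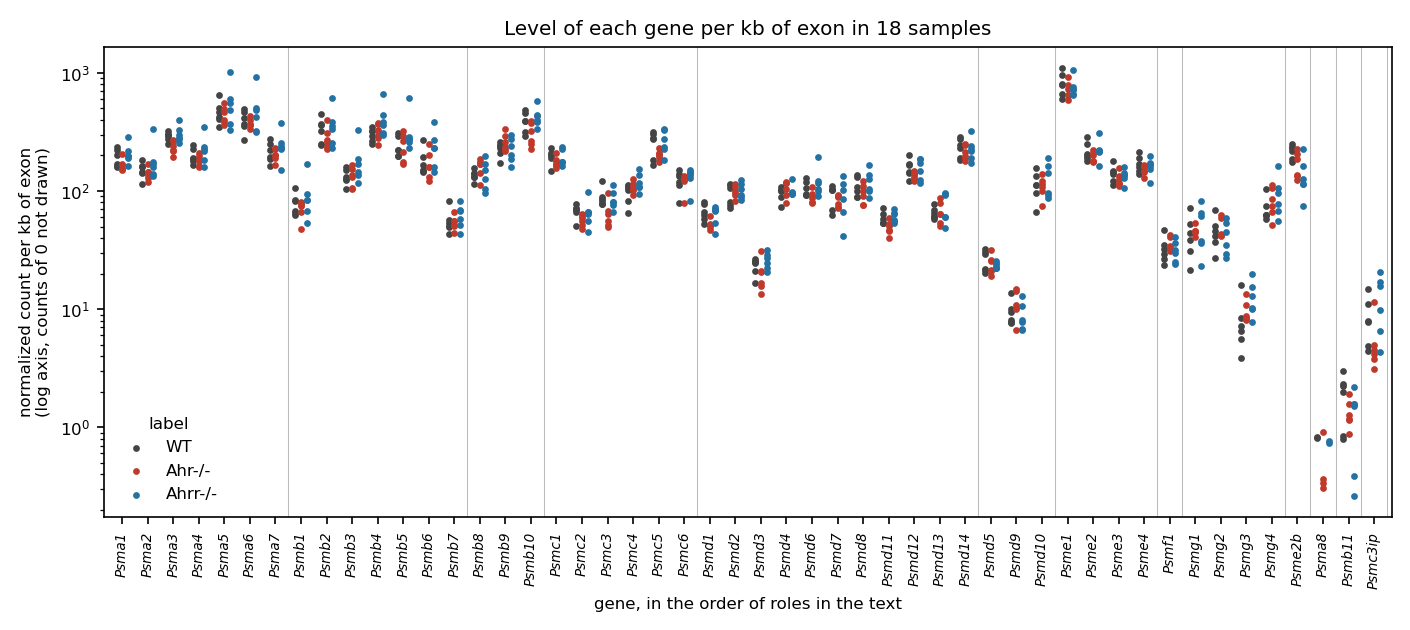
Normalized count per kb of exon (log axis) of the 50 genes, grouped by role, with 1 point for each of 6 WT, 6 *Ahr*-/- and 6 *Ahrr*-/- samples (by colour, zeros not drawn). *Psme1* is highest with a mean of 767 per kb over all 18 samples and the testis gene *Psma8* lowest with 0.281.

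The tissue-restricted subunits were close to absent. *Psma8*, known from meiotic cells of the testis, averaged 0.281 per kb and was at 0 in 10 of 18 samples, and *Psmb11*, which forms the thymoproteasome of cortical thymic epithelium, averaged 1.48 per kb. Both fell short of the minimum for testing, a mean of 1 above the lowest value, in every comparison, and *Psmc3ip* (8.71 per kb) passed it only between WT and *Ahrr*-/-. *Psme2b* averaged 174 per kb. Its 837-base transcript shares 60.2% of its stretches of 75 bases with *Psme2*, and it overlaps an exon of *9930111J21Rik1*, so its counts cannot be assigned with certainty.

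Some members are neighbours in the genome (GRCm38). *Psmb8* (chr17:34197721-34201454) and *Psmb9* (chr17:34181987-34187764) lie beside *Tap1* and *Tap2*, which encode the pump that moves peptides to MHC class I, and an exon of *Psmb9* overlaps *Tap1* by 212 bases. *Psme1* (chr14:55578123-55581529) and *Psme2* (chr14:55587441-55591113), which together make PA28, lie on opposite strands with *Emc9* between them. Exons of other members also overlap genes next to them, such as *Psmb7* with *Nek6* by 253 bases, *Psmc3* with *Slc39a13* by 147 bases and *Psmd13* with *Sirt3* by 329 bases. The labels do not say whether reads kept their strand, so counts in these stretches could belong to either gene.

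The start regions of the members were searched for motifs known from regulators of the pathway, in RefSeq windows (GRCm38.p6) of 250 bases before to 50 after the start, on both strands. A window was available for 41 of the 49 members other than *Psmc3ip*, and none for *Psmb1*, *Psmb2*, *Psmb7*, *Psmc3*, *Psmd3*, *Psmd7*, *Psmg2* and *Psma8*. TGACNNNGC, read by the CNC factors NRF1 and NRF2 with small MAF proteins, was in 6 members (14.6%, against 14.0% of the 27025 genes with a window): *Psmb5*, *Psmb6*, *Psmc6*, *Psmd12*, *Psmd9* and *Psme4*. GAAANNGAAA, a motif of interferon regulatory factors, was in 5 members (12.2%, against 3.99%), among them *Psme1* but none of the 3 inducible beta subunits. GCGTG, the core that AHR reads with its partner ARNT, was in 22 members (53.7%, against 35.2%), and the longer TNGCGTG, which contains it, was in 3 (7.32%, against 5.84%). CCAAT was in 14 (34.1%, against 41.1%) and TTCNNNGAA, a STAT motif, in 3 (7.32%, against 9.55%). The genes with a window were not matched to the members in base composition or level, so these shares do not show an excess particular to proteasome genes. A match of letters describes the sequence and shows no binding. The stretches outside annotated exons are shown for 3 members, *Psmb5* as the cutting subunit with the largest departure in 1 sample, and *Psmb10* and *Psma3* as those with the smallest adjusted p between *Ahrr*-/- and *Ahr*-/-. Capitals mark TGACNNNGC in *Psmb5* (chr14:54618023-54618245, minus strand) and, in *Psmb10* (chr8:105938445-105938642, minus strand) and *Psma3* (chr12:70974373-70974620, plus strand), CACGC, which is GCGTG on the opposite strand.
Psmb5: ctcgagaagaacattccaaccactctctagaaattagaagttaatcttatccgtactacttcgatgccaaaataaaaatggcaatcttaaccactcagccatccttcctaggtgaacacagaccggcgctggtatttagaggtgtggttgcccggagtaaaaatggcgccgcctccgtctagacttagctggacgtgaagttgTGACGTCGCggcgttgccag
Psmb10: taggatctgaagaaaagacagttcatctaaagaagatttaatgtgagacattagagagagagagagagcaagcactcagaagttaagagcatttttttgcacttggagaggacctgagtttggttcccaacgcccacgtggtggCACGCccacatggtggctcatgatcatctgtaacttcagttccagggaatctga
Psma3: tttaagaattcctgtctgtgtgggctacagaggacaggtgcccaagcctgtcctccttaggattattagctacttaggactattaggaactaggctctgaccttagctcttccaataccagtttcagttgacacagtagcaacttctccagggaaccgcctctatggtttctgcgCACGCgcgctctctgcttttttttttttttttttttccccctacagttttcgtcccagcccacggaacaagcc

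Values by sample are given first for the genes of the cutting subunits and PA28. *Psmb5*, the chymotrypsin-like site of the standard core, had levels of 7.90, 8.03 and 8.40 (lowest, median, highest) in WT, 7.73, 8.11 and 8.46 in *Ahr*-/-, and 8.07, 8.27 and 9.25 in *Ahrr*-/-. The groups overlapped, and *Ahrr*-/- M1 was far above all other samples. *Psmb6*, the caspase-like site, was at 8.37, 8.48 and 9.14 in WT, at 8.17, 8.49 and 9.06 in *Ahr*-/- and at 8.38, 8.96 and 9.61 in *Ahrr*-/-. *Ahrr*-/- M1 was again highest, WT F1 and *Ahr*-/- F3 were highest in their own groups, and the groups overlapped. *Psmb7*, the trypsin-like site, was at 7.70, 7.89 and 8.41 in WT, at 7.72, 7.93 and 8.17 in *Ahr*-/- and at 7.69, 8.11 and 8.43 in *Ahrr*-/-, with full overlap and with *Ahrr*-/- M1 just above WT M1.

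Of the inducible counterparts, only *Psmb10* had its highest level of all 18 samples in *Ahrr*-/- M1. *Psmb8*, which replaces *Psmb5*, had levels of 8.81, 9.03 and 9.22 in WT, 8.80, 9.32 and 9.44 in *Ahr*-/-, and 8.59, 9.05 and 9.51 in *Ahrr*-/-. Here *Ahrr*-/- F2 was highest, *Ahrr*-/- M3 lowest, and the groups overlapped. *Psmb9*, which replaces *Psmb6*, was at 9.45, 9.85 and 9.99 in WT, at 9.76, 9.92 and 10.32 in *Ahr*-/- and at 9.34, 9.76 and 10.17 in *Ahrr*-/-. *Ahr*-/- F1 was highest and *Ahrr*-/- M3 lowest, in overlapping groups. *Psmb10*, which replaces *Psmb7*, was at 9.12, 9.51 and 9.80 in WT, at 8.82, 9.13 and 9.50 in *Ahr*-/- and at 9.32, 9.60 and 10.03 in *Ahrr*-/-. Its *Ahr*-/- samples lay lowest, led down by M1, but *Ahr*-/- F3 and M3 reached into the range of both other groups. The lowest and highest samples within each group were the same for *Psmb10* as for *Psmb6*.

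PA28 varied mostly within groups. *Psme1* had levels of 10.45, 10.84 and 11.27 in WT, 10.41, 10.63 and 11.04 in *Ahr*-/-, and 10.54, 10.69 and 11.22 in *Ahrr*-/-. Its highest samples were WT F1 and *Ahrr*-/- M1, and the groups overlapped. *Psme2* was at 8.57, 8.71 and 9.14 in WT, at 8.53, 8.63 and 8.82 in *Ahr*-/- and at 8.44, 8.81 and 9.26 in *Ahrr*-/-, with the same samples highest in each group as for *Psme1*. Per kb of exon, *Psme1* exceeded *Psme2* by a median ratio of 3.60 in WT, 3.79 in *Ahr*-/- and 3.33 in *Ahrr*-/-.

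**Figure D2:**
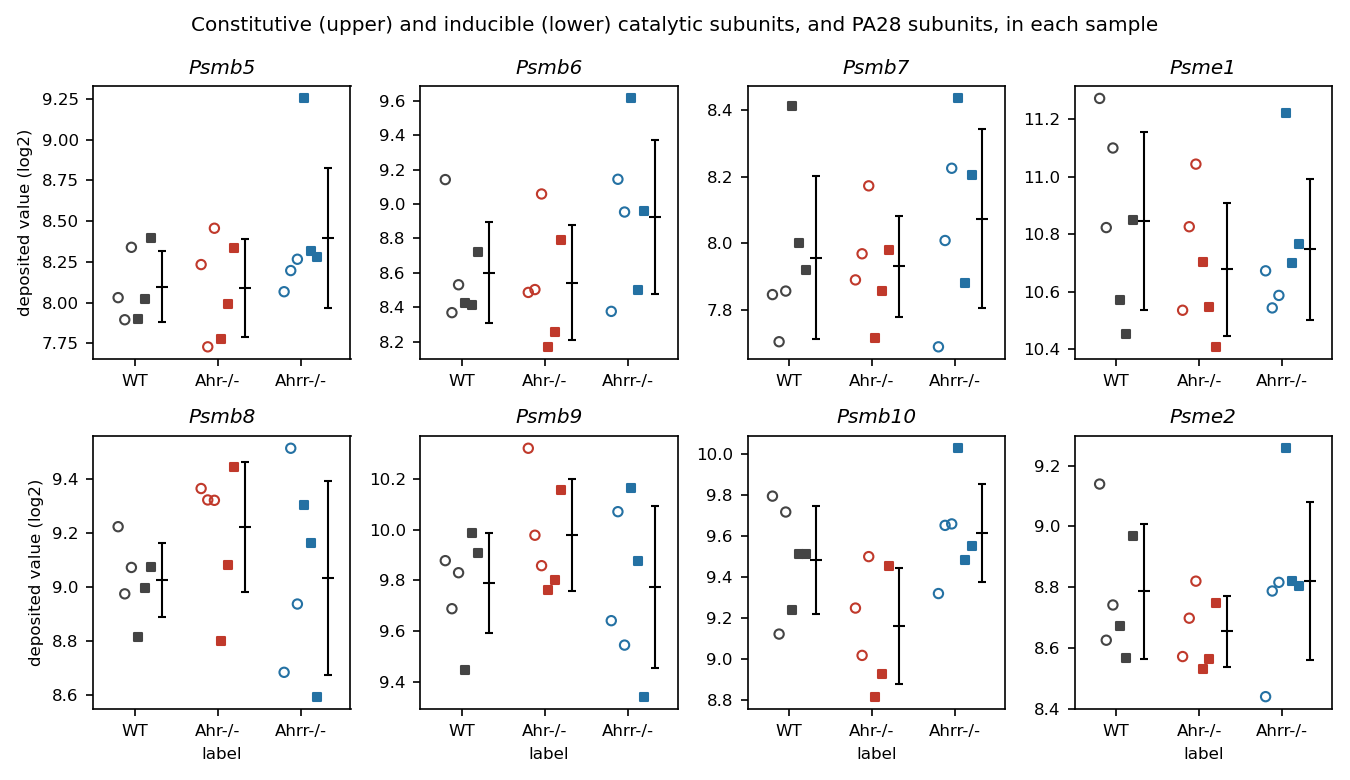
Level (variance-stabilized log2 value) of *Psmb5*, *Psmb6*, *Psmb7* and *Psme1* (upper) and of *Psmb8*, *Psmb9*, *Psmb10* and *Psme2* (lower) in 6 WT, 6 *Ahr*-/- and 6 *Ahrr*-/- samples, with females as open circles, males as filled squares and bars for the mean and SD. Groups overlap in every panel, and *Ahrr*-/- M1 is the single high point of *Psmb5* at 9.25.

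Each inducible subunit was also set against its standard counterpart by normalized counts per kb of merged exons. These shares compare samples, and their size depends on the annotated lengths, which are 3.38 kb for *Psmb8* and 0.899 kb for *Psmb5*. *Psmb8* made up 31.4%, 37.0% and 41.5% (lowest, median, highest) of *Psmb8* plus *Psmb5* in WT, 34.6%, 39.4% and 50.2% in *Ahr*-/- and 21.7%, 31.2% and 43.3% in *Ahrr*-/-. *Psmb9* made up 47.2%, 57.3% and 63.6% of its pair in WT, 48.5%, 62.6% and 67.7% in *Ahr*-/- and 40.8%, 47.7% and 60.0% in *Ahrr*-/-. *Psmb10* made up 79.6%, 87.7% and 90.7% of its pair in WT, 82.8%, 84.6% and 87.0% in *Ahr*-/- and 85.5%, 87.8% and 88.7% in *Ahrr*-/-. Shares of different genotypes overlapped at each site.

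Seen by sample, 47 members with a mean high enough across all 18 samples stood out in 1 library. The deviation of a gene in a sample is its level minus its mean over the 18 samples. The median deviation of the 47 genes was 0.49 in *Ahrr*-/- M1 and between -0.22 and 0.14 in the other 17 samples, where *Ahr*-/- M1 and WT F2 (-0.20) were lowest. The median over all genes was -0.01 in *Ahrr*-/- M1. Of the 47 genes, 26 had their highest level of all 18 samples in that library, and no other sample was highest for more than 4. These 26 included 7 of 7 alpha and 7 of 7 standard beta subunits and 3 of 4 chaperones of the core, but 1 of 3 inducible beta subunits, 2 of 6 ATPases, 4 of 11 other subunits of the regulatory particle and 1 of 4 activators. The core's rings stood out, with a median deviation of 0.74 for the alpha and 0.93 for the standard beta subunits. Of all genes, 14.7% were highest in *Ahrr*-/- M1 and 14.4% in *Ahrr*-/- M3.

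**Figure D3:**
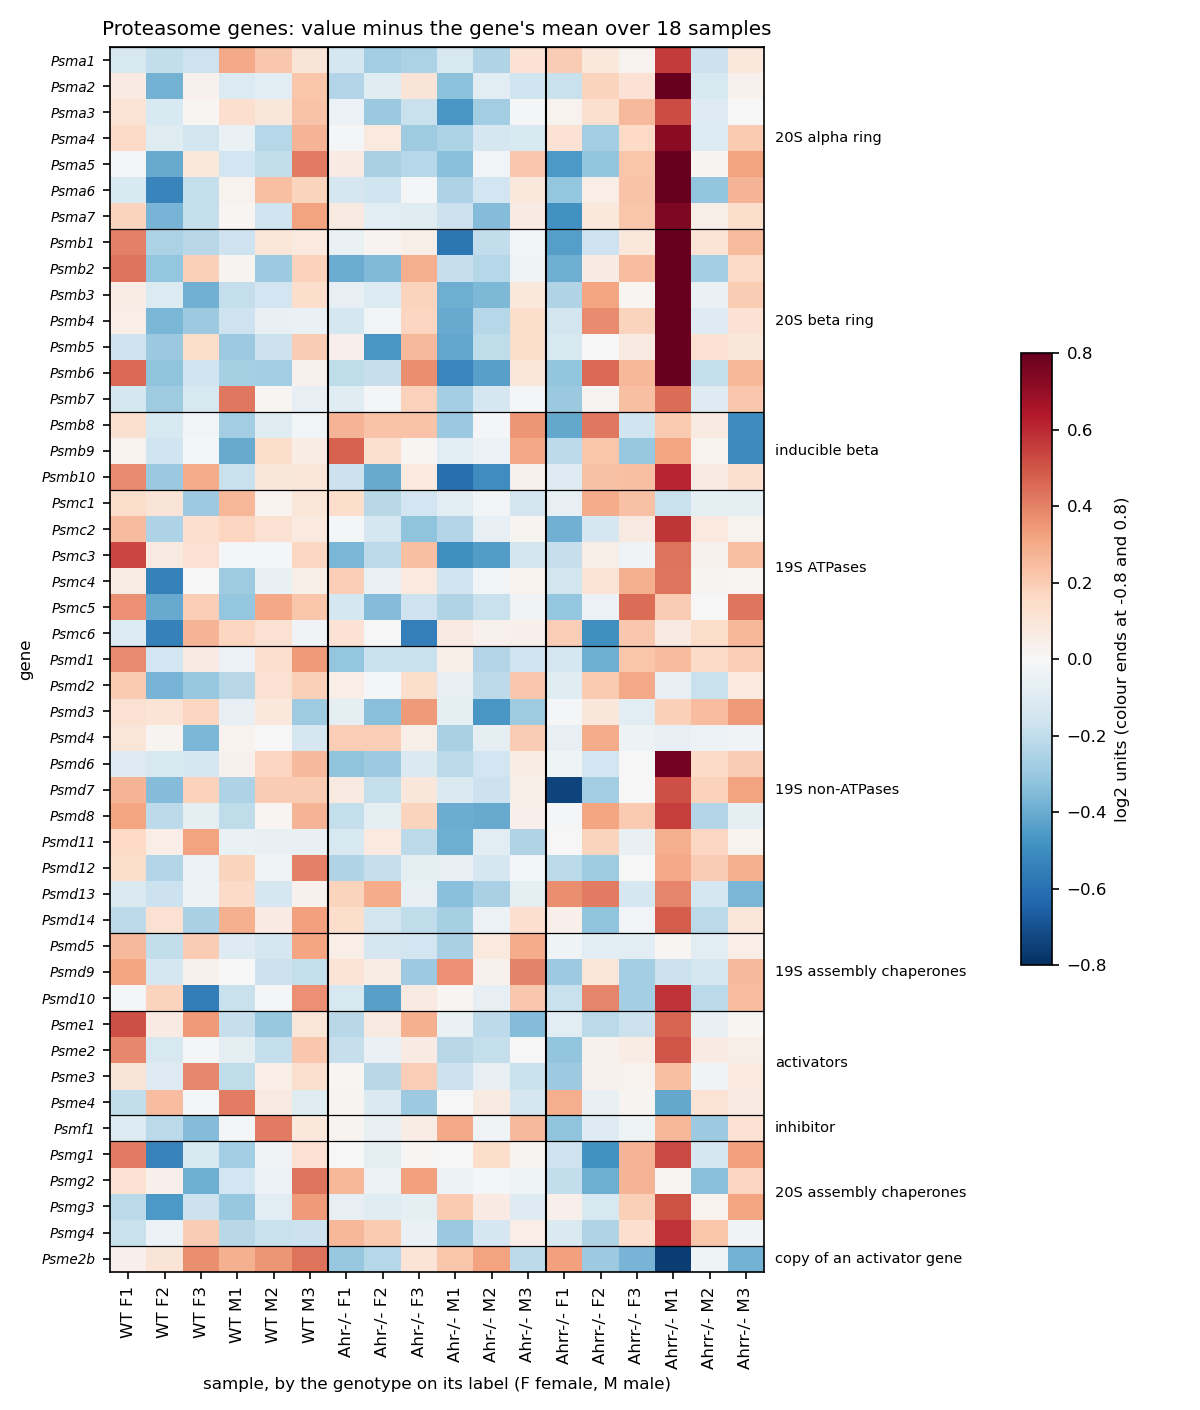
Deviation from the gene's mean (log2, colour ends at 0.8 in both directions) of 47 proteasome genes, ordered by role, in the 18 samples. *Ahrr*-/- M1 is highest for 26 of the genes, including 7 of 7 alpha and 7 of 7 standard beta subunits of the core.

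In *Ahrr*-/- M1 the deviation also went with exon length, the total length of a gene's merged exons. Among 11134 genes with a known length, the 25% with the shortest exon length (below 2.93 kb) exceeded the 25% with the longest (above 7.07 kb) by a median deviation of 0.50 there, against -0.22 to 0.14 in the other 17 samples. Proteasome genes have a short total exon length, with a median of 2.81 kb against 4.63 kb for all genes, and 26 of the 47 fall in the shortest class and 4 in the longest. Within *Ahrr*-/- M1 the members' median deviation was 0.52, 0.45, 0.28 and -0.08 from the shortest to the longest class. After each sample was centred within 20 bins of exon length, a step chosen after seeing the data, the members' median in that library was 0.27, the other 17 samples lay between -0.14 and 0.11, and 16 members were still highest there, 7 of 7 alpha and 5 of 7 standard beta subunits among them. The part of RNA quality in this was not tested, since the labels state a minimum integrity number and no value per sample.

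**Figure D4:**
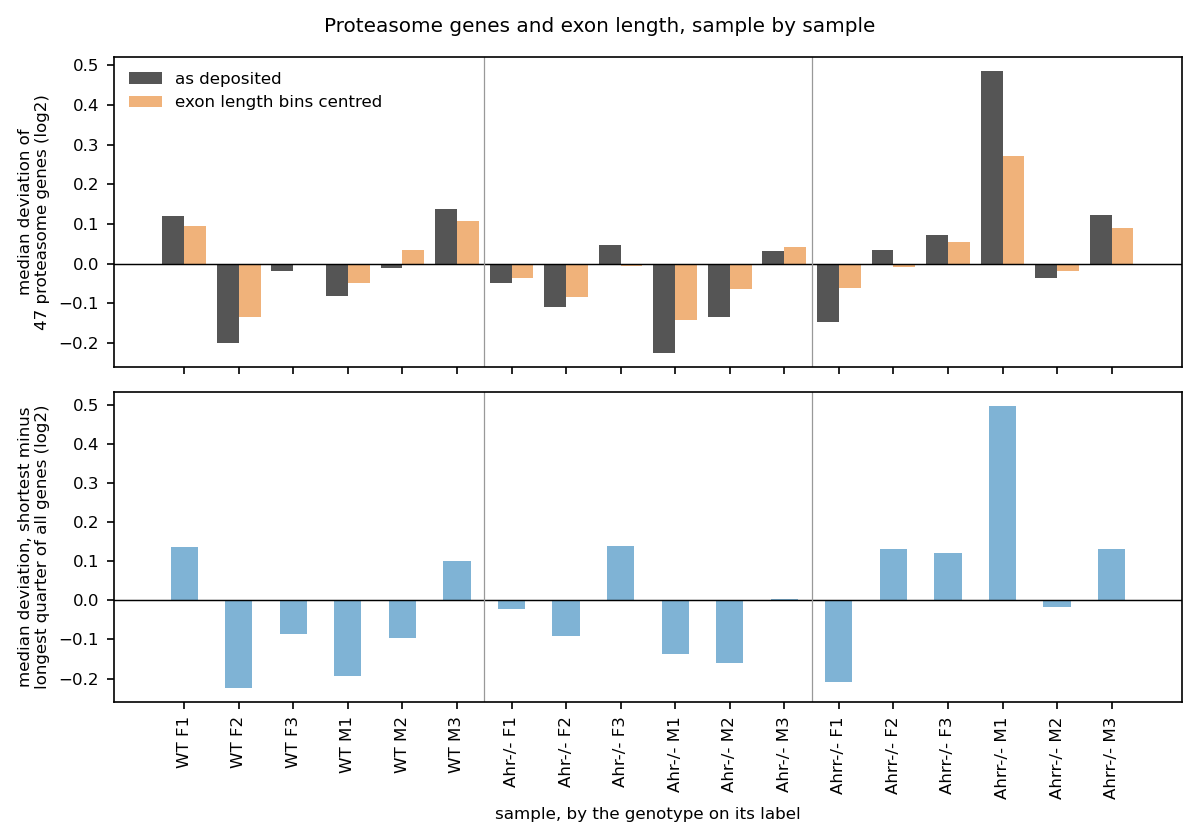
Upper, median deviation (log2) of 47 proteasome genes in each of 18 samples, as deposited and with exon length bins centred. Lower, median deviation of the 25% of all genes with the shortest total exon length minus that of the 25% with the longest. *Ahrr*-/- M1 reaches 0.49 as deposited and 0.27 after centring in the upper panel, and 0.50 in the lower.

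The comparison of WT with *Ahr*-/- asks what loss of the receptor changes. Differences come from limma with sex as a covariate, are WT minus *Ahr*-/- on the log2 scale, and were called at an adjusted p below 0.05 over all genes tested. Of 11346 genes tested, 1003 were called (8.84%), 418 higher in WT and 585 higher in *Ahr*-/-, and 623 were called without *Ahr*-/- F1. None of the 47 proteasome genes tested was called (0 by limma, 0 by voom), and 6 had an unadjusted p below 0.05 (6 by voom), against 2638 of all genes (23.3%). That 6 became 3 without WT F3 or *Ahr*-/- F1, 4 without WT M3 or *Ahr*-/- F2 and 9 without WT F2 or with length bins centred. Differences were small. The 95% interval lay within 1.5-fold in either direction for 45 of the 47 members, against 72.0% of all genes, and no member's groups were free of overlap, against 512 of all genes (4.51%). Members were measured in the same samples and can rise and fall together, so counts of members by direction, here and below, are not of independent observations. The members' median difference was 0.09, with 34 of 47 higher in WT, against 0.004 and 50.8% for all genes, and it stayed positive when samples were centred on their median (0.07), quantile normalized (0.08) or centred by exon length (0.09). With 1 sample left out it ran from 0.04 (28 of 47 higher in WT, without *Ahr*-/- M1) to 0.13 (35 of 47, without WT F2). A p that misses the threshold does not show that values did not differ.

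Members with an unadjusted p below 0.05 were all higher in WT. *Psmc3*, an ATPase of the 19S base, had levels of 8.03, 8.14 and 8.58 in WT and 7.55, 7.76 and 8.28 in *Ahr*-/-, a difference of 0.38 (SE 0.13, 95% interval 0.11 to 0.65, adjusted p 0.0757). WT F1 was the highest sample, of the *Ahr*-/- samples only F3 reached into the range of WT, and without *Ahr*-/- F3 the difference was 0.46 and passed (adjusted p 0.0327). *Psma3*, an alpha subunit, had levels of 10.02, 10.24 and 10.37 in WT and 9.68, 9.91 and 10.12 in *Ahr*-/-, a difference of 0.29 (SE 0.10, adjusted p 0.0864). The ranges overlapped because WT F2 lay below *Ahr*-/- F1 and M3. *Psmd1*, the large scaffold subunit of the 19S base, differed by 0.29 (adjusted p 0.117), *Psmd11*, a lid subunit, by 0.22 (0.167), *Psmb10* by 0.32 (SE 0.14, 0.180) and the copy *Psme2b* by 0.28 (0.172). In the opposite direction the largest differences were those of *Psmb8* (-0.20, SE 0.11, adjusted p 0.298) and *Psmb9* (-0.19, SE 0.12, 0.364).

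By role, the alpha subunits were higher in WT for 7 of 7 (median 0.09, highest *Psma3*), the ATPases for 5 of 6 (median 0.18), the other 19S subunits for 8 of 11 (0.16) and the activators for 4 of 4 (0.14). The alpha subunits were so for 5 of 7 without WT M3 or *Ahr*-/- M1 and 6 of 7 without WT M2, and the ATPases for 4 of 6 without WT F3 or *Ahr*-/- F3. The standard beta subunits were higher in 6 of 7 as deposited (median 0.03), in 4 of 7 after centring on the median, and in 2 of 7 without *Ahr*-/- M1. *Psmb5* differed by 0.01, *Psmb6* by 0.06 and *Psmb7* by 0.03. Among the inducible beta subunits 1 of 3 was higher in WT, with *Psmb10* opposite to *Psmb8* and *Psmb9*. All 4 chaperones of the core were lower in WT (median -0.10), or 3 of 4 without WT F2 or WT F3, as was *Psmf1* (-0.12). Of the chaperones of the 19S particle, 2 of 3 were higher in WT as deposited. This count was 1 of 3 after centring on the median or quantile normalization. It was also 1 of 3 in 5 fits with 1 sample left out, such as without *Ahr*-/- F2.

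WT with *Ahrr*-/- asks what loss of the repressor changes, and uses the same 6 WT samples, so that the values of both comparisons stand side by side and are not independent. Of 11546 genes tested, limma called 9 (0.0779%), all higher in *Ahrr*-/-. Leaving out *Ahrr*-/- F1 raised this to 25, and the lowest count without a sample was 4. None of 48 members tested, *Psmc3ip* included, was called (0 by limma, 0 by voom), and 2 had an unadjusted p below 0.05 (3 by voom, and 1 to 5 by limma with 1 sample left out, the 5 without *Ahrr*-/- M2), against 853 of all genes (7.39%). The interval lay within 1.5-fold for 39 of 48 (38 of 47 without *Psmc3ip*), against 62.9% of all genes, and none had groups free of overlap, against 53 of all genes (0.459%). The members' median difference, WT minus *Ahrr*-/-, was -0.10 with 16 of 48 higher in WT (-0.09 with 16 of 47 without *Psmc3ip*), against -0.01 and 48.3% over all genes. It moved with single libraries in both directions, to -0.02 with 20 of 47 higher in WT without *Ahrr*-/- M1 and to -0.04 without WT F2. It was -0.12 without WT F1 or *Ahrr*-/- F1, with 9 and 10 of 48 higher in WT, and -0.14 without *Ahrr*-/- M2. With exon length bins centred it was 0.002 with 24 of 48 higher in WT, and it was -0.05 after centring on the median and -0.06 after quantile normalization.

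The 2 members with an unadjusted p below 0.05 lay at opposite ends. *Psme2b* had levels of 7.69, 7.96 and 8.08 in WT and 6.88, 7.32 and 7.97 in *Ahrr*-/-, a difference of 0.52 (SE 0.17, adjusted p 0.554). *Psme2b* was lowest in *Ahrr*-/- M1, the groups overlapped, and the difference without that library was 0.41. *Psmb4*, a beta subunit without a cutting site, had levels of 9.11, 9.37 and 9.53 in WT and 9.33, 9.62 and 10.41 in *Ahrr*-/-, a difference of -0.37 (SE 0.17, adjusted p 0.665). Its groups overlapped, *Ahrr*-/- M1 was highest, and without it the difference was -0.23. All 7 standard beta subunits were lower in WT (median -0.30), with *Psmb5* at -0.30 and *Psmb6* at -0.32, but without *Ahrr*-/- M1 this held for 5 of 7 (median -0.13) and with exon length bins centred for 6 of 7 (-0.16). All 7 alpha subunits were lower in WT (median -0.16), and without *Ahrr*-/- M1 or with length bins centred 6 of 7 were (-0.04 and -0.06). Of the inducible subunits, *Psmb8* differed by -0.01, *Psmb9* by 0.02 and *Psmb10* by -0.13. Their median and that of the ATPases (3 of 6 higher in WT) were both -0.01 and turned positive under centring on the median, quantile normalization and length centring (0.04 and 0.05 in the last). The other 19S subunits were higher in WT in 4 of 11 (median -0.07) and the activators in 3 of 4 (0.06), and both kept the sign of their median under these settings. Leaving out 1 sample moved these counts, for the other 19S subunits to 1 of 11 without WT F1 and 2 of 11 without *Ahrr*-/- F1 or F2. For the ATPases it was 1 of 6 without WT F1 or *Ahrr*-/- F1 and 5 of 6 without WT F2, and the activators ranged from 2 to 4 of 4. Chaperones of the core had a median of -0.16, which became 0.04 with length bins centred.

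*Ahrr*-/- with *Ahr*-/- sets both knockouts against each other and shares samples with each comparison above. Of 11474 genes tested, limma called 1708 (14.9%), 923 higher in *Ahrr*-/- and 785 higher in *Ahr*-/-, with 818 without *Ahr*-/- M3 and 2574 without *Ahrr*-/- F1. None of 47 proteasome genes was called (0 by limma, 0 by voom), and 7 had an unadjusted p below 0.05 (7 by voom), against 3760 of all genes (32.8%). That 7 became 2 when samples were centred on their median or *Ahr*-/- M1 was left out, 3 without *Ahrr*-/- M1 and 11 without *Ahrr*-/- F1. Groups overlapped for each member, while 529 of all genes (4.61%) had groups free of overlap. The members' median difference, *Ahrr*-/- minus *Ahr*-/-, was 0.16 with 39 of 47 higher in *Ahrr*-/-, against -0.003 and 49.6% for all genes. Without *Ahrr*-/- M1 it was 0.10 with 34 of 47, and with exon length bins centred 0.09 with 37 of 47. The interval lay within 1.5-fold for 32 of 47, against 57.6% of all genes.

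*Psmb10* had the smallest adjusted p of any member in any comparison, with a difference of 0.46 (SE 0.15, 95% interval 0.13 to 0.78, adjusted p 0.0553). It passed without *Ahr*-/- F3 (0.53, adjusted p 0.0330) and without *Ahrr*-/- F1 (0.52, 0.0271), and it did not without *Ahrr*-/- M1 (0.36, 0.0997). *Psma3*, at 10.04, 10.22 and 10.66 in *Ahrr*-/-, differed by 0.35 (SE 0.13, adjusted p 0.0752). *Psmd6*, a lid subunit, had levels of 8.31, 8.54 and 9.23 in *Ahrr*-/- and 8.14, 8.28 and 8.52 in *Ahr*-/-, a difference of 0.33 (adjusted p 0.0895). In both genes *Ahrr*-/- M1 was the highest sample and the groups overlapped. *Psmd11* (0.26), *Psmc5* (0.30), *Psma1* (0.29) and *Psmc3* (0.33), subunits of lid, base and core, had adjusted p of 0.115, 0.127, 0.133 and 0.134. *Psmc3* and *Psmd3*, a lid subunit, passed without *Ahr*-/- F3 (0.44 and 0.39), and *Psmc5* passed without *Ahrr*-/- F1 (0.39).

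By role, differences of the core's rings leaned towards *Ahrr*-/-, though none of their genes was called (0 by limma and by voom, 2 alpha and 0 standard beta subunits at an unadjusted p below 0.05 by limma). Differences were above 0 for 7 of 7 alpha (median 0.27) and 7 of 7 standard beta subunits (median 0.31), against 49.6% of all genes, and kept this sign with samples centred on the median, quantile normalized or length-centred (0.20 and 0.24), and without *Ahrr*-/- M1 (0.13 and 0.14). These genes were measured in the same samples and were all highest in *Ahrr*-/- M1, so the counts are not of independent observations. In this comparison 7 of 8 Paneth and goblet and 4 of 7 dividing cell markers were called higher in *Ahrr*-/-. Of the eosinophil markers 4 of 6 were called lower, and the part of these cells was not tested. ATPases were higher in 6 of 6 (median 0.14) and activators in 4 of 4 (0.08, and 3 of 4 without *Ahrr*-/- M1). The other 19S subunits were higher in 10 of 11 (0.16), and in 8 of 11 after centring on the median or without *Ahrr*-/- M1. Chaperones of the core were higher in 3 of 4 as deposited (0.06), in 2 of 4 after centring on the median, and in 1 of 4 after quantile normalization, with length bins centred or without *Ahrr*-/- M1. *Psmb9* (-0.21, adjusted p 0.379) and *Psmb8* (-0.19, 0.452) were lower in *Ahrr*-/-, as were *Psmf1* (-0.15) and *Psme2b* (-0.24). *Psmb10* was thus the only inducible beta subunit on the side of the standard ones, whose largest differences were those of *Psmb6* (0.38) and *Psmb3*, a subunit without a cutting site (0.33), which were 0.22 and 0.15 without *Ahrr*-/- M1. Chaperones of the 19S particle were split, with 1 of 3 higher in *Ahrr*-/- and a median of -0.02, and 2 of 3 with length bins centred. Leaving out 1 sample also gave 2 of 3 in 3 fits, such as without *Ahr*-/- F1, and medians of -0.08 to 0.04.

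**Figure D5:**
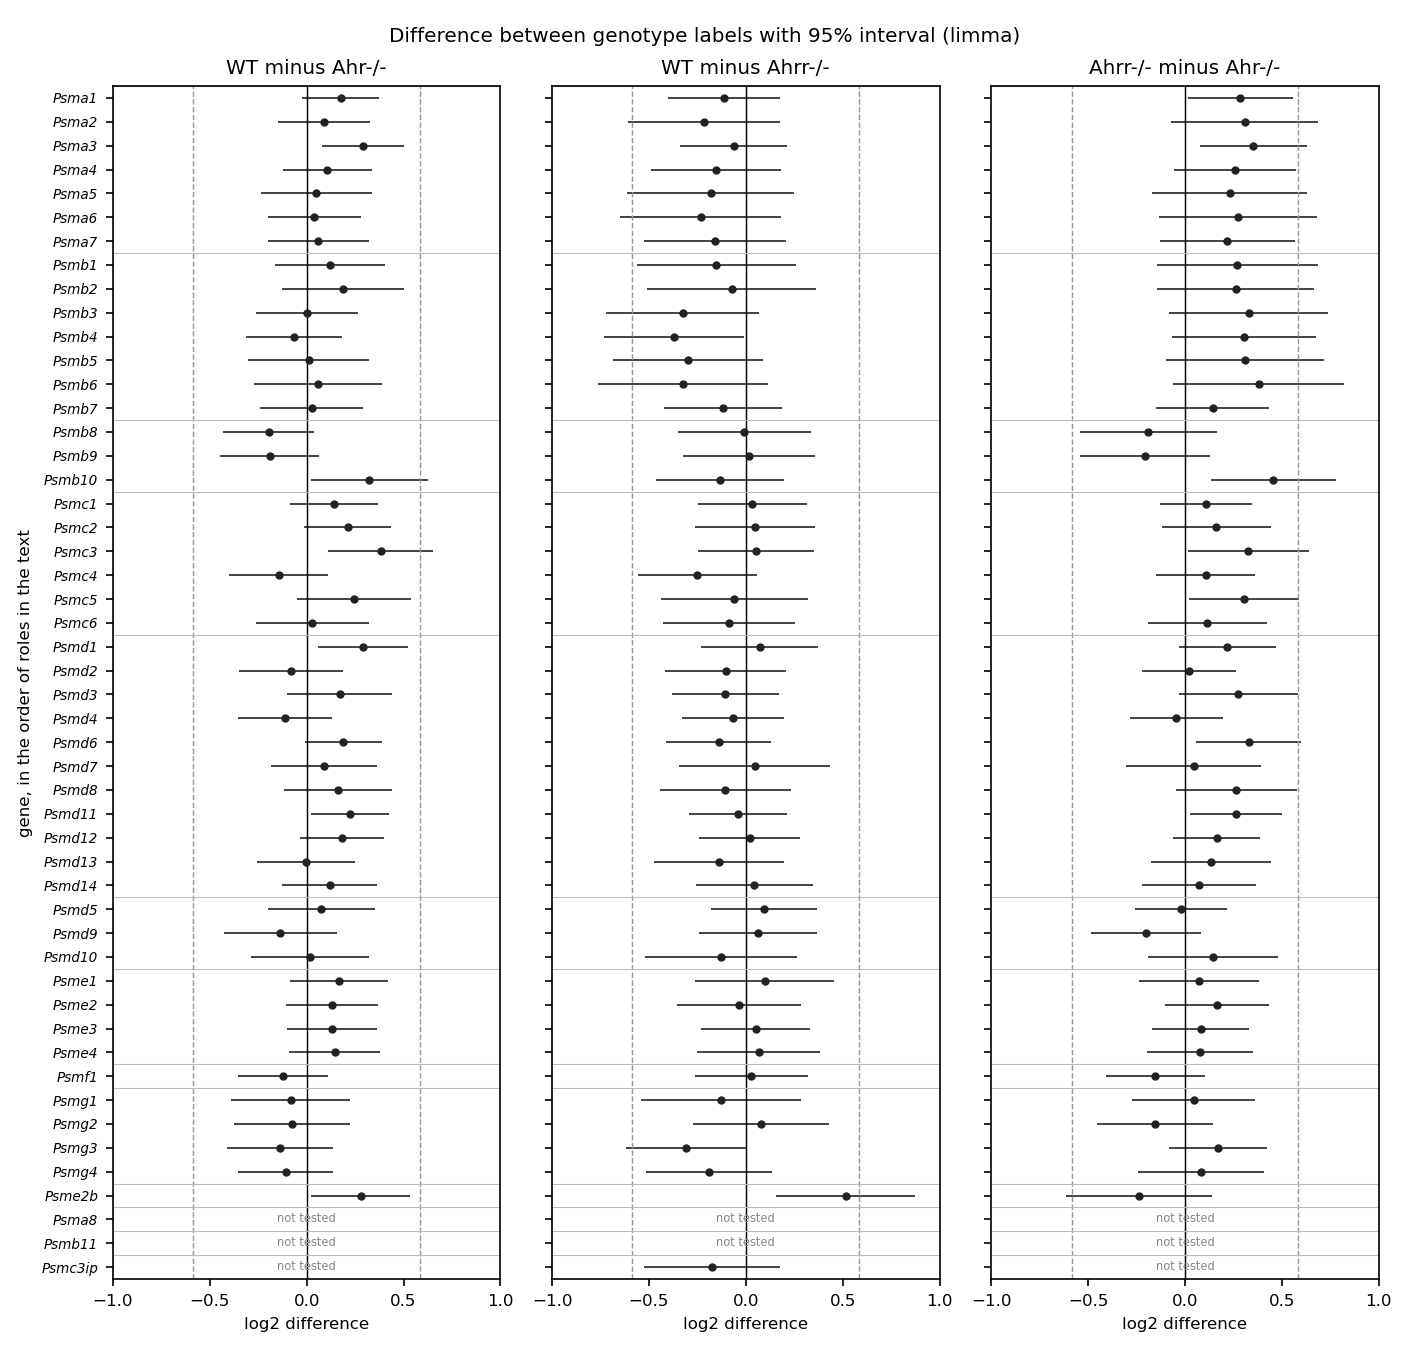
Difference in log2 level with 95% interval (limma, sex as covariate) of each member in 3 comparisons, WT minus *Ahr*-/-, WT minus *Ahrr*-/- and *Ahrr*-/- minus *Ahr*-/-, with dashed lines at 1.5-fold (0.585). Of 47, 48 (*Psmc3ip* included) and 47 members tested, the intervals of 45, 39 and 32 lie between the dashed lines, and *Psmb10* in the last comparison (0.46) has the smallest adjusted p, 0.0553.

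Sex was compared over all 18 samples with genotype as a covariate. Of 11468 genes tested, limma called 351 (3.06%), 69 higher in males and 282 higher in females, and leaving out 1 sample gave 142 (without *Ahr*-/- M1) to 733 (without WT F1). No proteasome gene of 47 was called (0 by limma, 0 by voom), and 4 had an unadjusted p below 0.05 (3 by voom), against 18.7% of all genes. Their median difference, male minus female, was 0.05 with 31 of 47 higher in males, against 0.01 and 53.1% for all genes. The smallest adjusted p were those of *Psmd6* (0.28, SE 0.09, adjusted p 0.0963) and *Psmd12* (0.25, 0.113), both lid subunits, followed by *Psmf1* (0.25, 0.162) and *Psmg3* (0.22, 0.257). These counts rested on 1 male library, since without *Ahrr*-/- M1 the median was -0.01 with 23 of 47 higher in males. The alpha subunits were higher in males in 7 of 7 as deposited, in 6 of 7 after centring on the median and in 4 of 7 without *Ahrr*-/- M1. *Psma5* differed most (0.29, adjusted p 0.303, and 0.18 without *Ahrr*-/- M1), and the lowest difference was that of *Psmd13* (-0.16). Of the markers of other cells, 2 of macrophages and dendritic cells were higher in males, and 1 of neutrophils and *Kit* (-0.94, adjusted p 0.0245) were higher in females, and their part was not tested. Whether a genotype difference depended on sex was tested as an interaction. Of 11346 genes none was called for WT against *Ahr*-/- (0%, limma, 533 at an unadjusted p below 0.05, 544 by voom), and of 11546 genes none for WT against *Ahrr*-/- (0%, 544 and 452). Members included 1 gene at an unadjusted p below 0.05 in each (1 and 2 by voom), *Psmd13* (0.49, adjusted p 0.954) and *Psme1* (-0.73, adjusted p 0.727).

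Other genes of the pathway were read in 7 lists for the 3 genotype comparisons. Of all genes, limma called 8.84% between WT and *Ahr*-/-, 0.0779% between WT and *Ahrr*-/- and 14.9% between *Ahrr*-/- and *Ahr*-/-. Subunits and assembly factors that carry other names, the ubiquitin receptor *Adrm1*, the small 19S subunit *Sem1* and the core chaperone *Pomp*, had no call in any comparison (limma, 2, 0 and 0 of 3 at an unadjusted p below 0.05 and the same by voom), with medians of 0.02, -0.01 and 0.03. *Sem1* came closest (WT minus *Ahr*-/- -0.39, adjusted p 0.0784). Of 16 factors that bind or feed the proteasome, *Zfand2a*, an arsenite-inducible adaptor, was higher in WT than in *Ahr*-/- (0.53, adjusted p 0.00725, groups without overlap) and higher in *Ahrr*-/- than in *Ahr*-/- (0.49), and none was called between WT and *Ahrr*-/- (1 at an unadjusted p below 0.05 by limma, 0 by voom). The list's medians were -0.003, 0.004 and -0.008. Of 9 regulators of proteasome transcription tested, the small MAF gene *Maff* was higher in WT than in *Ahr*-/- (0.52, adjusted p 0.0264), and *Nfe2l2*, which encodes NRF2 (0.66, 0.00417), and *Maff* (0.67) were higher in *Ahrr*-/- than in *Ahr*-/-. Voom called 2 of the 9 in each of these comparisons. None was called between WT and *Ahrr*-/- (0 at an unadjusted p below 0.05 by limma and by voom), and medians were 0.02, 0.004 and 0.07.

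The supply of ubiquitin was read from 6 genes. *Uba6*, an enzyme that activates ubiquitin, was higher (0.44, adjusted p 0.0377) and *Rps27a*, a ubiquitin fusion gene, lower (-0.60, 0.00108) in WT than in *Ahr*-/-, with no call in the other genotype comparisons (limma, 1 and 0 at an unadjusted p below 0.05, the same by voom) and medians of -0.06, -0.19 and 0.10. Of 10 genes of the p97 unfoldase and its cofactors none was called (limma, 1, 0 and 0 at an unadjusted p below 0.05, the same by voom), with medians of 0.01, 0.05 and 0.03. Of 12 genes of class I antigen processing, *Tap2* was lower in *Ahrr*-/- than in *Ahr*-/- (-0.52, adjusted p 0.0156), and none was called in the comparisons with WT (limma, 2 and 0 at an unadjusted p below 0.05, 1 and 0 by voom), with medians of 0.04, 0.10 and -0.07. The genomic neighbours of *Tap2*, which are *Tap1*, *Psmb8* and *Psmb9*, had no call in that comparison, the last 2 with differences below 0. Of 11 interferon gamma response genes tested, *Irf8* was higher (0.82, adjusted p 0.0220) and *Gbp7* lower (-0.57, 0.0323) in *Ahrr*-/- than in *Ahr*-/-, and none was called in the comparisons with WT (limma, 2 and 2 at an unadjusted p below 0.05, the same by voom), with medians of -1.42e-05, -0.07 and 0.02. Those 2 calls of 11 stand beside 14.9% of all genes called between *Ahrr*-/- and *Ahr*-/-.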

How the data were processed

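Gene expression was measured by bulk RNA sequencing of sorted eosinophils in 18 samples, none pooled per the labels. The deposited values are log2 expression: per the labels the authors aligned reads to GRCm38 (STAR 2.5.2, RSEM 1.3.0, Ensembl release 86) and applied DESeq2's variance-stabilizing transformation in R 4.0.3. Counts were recovered by inverting it, with total counts of 3842977 to 12046933 per sample. Each genotype pair was fitted alone (12 samples, 6 biological replicates a group) with limma 3.58.1 in R 4.3.3, with a mean-variance trend and sex as covariate, for genes with a mean of at least 1 above the lowest value; p-values were adjusted over all genes tested (Benjamini-Hochberg, two-sided), and voom used the recovered counts with trimmed-mean scaling written for this purpose and tested on simulated data. Values by sample were given for the 3 cutting subunits, their 3 inducible counterparts, *Psme1* and *Psme2*, by rule; the other members named were chosen by their p or by the size of their difference. The members and the 7 pathway and 11 marker lists were chosen with earlier results of these data known. The result of 1 marker list is not reported here. Normalized counts per kb used GENCODE M21 exon lengths. The rest used matplotlib 3.10.9, scipy 1.17.1, numpy 2.4.6 and pandas 2.3.3 under Python 3.11.15. Alternatives were the minimum mean, scaling, trend, sample weights, covariate, replicate block, scale, a joint fit of all samples, and omission of each sample in turn; exon length centring and leaving out both libraries with few genes at 0 were added after seeing the data. Protein was not analysed here.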

Additional observations from a re-analysis of the deposited data

Results flagged for a closer look

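In each genotype, the levels of the genes given by sample and the median deviations by role were examined for a sample whose gap to its nearest neighbour took more of the group's range than Dixon's 95% critical value for 6 samples. Of 72 groups examined 5 had such a sample, and chance gives this in about 1 in 20 groups. *Psmb5* in *Ahrr*-/- M1 was at 9.25, with the next sample at 8.31 (gap 0.79 of the range). *Psme1* in the same library was at 11.2, with the next at 10.8 (0.67). *Psmc3* in WT F1 was at 8.58, with the next at 8.21 (0.68). The median deviation of the 19S ATPases in WT F2 was -0.325, far below the next sample at 0.0763 (0.77). That of the activators in *Ahr*-/- F3 was 0.132, above the next at -0.0827 (0.75). The first 2 lie in the library that stood apart for the core's subunits, and *Ahr*-/- F3 is one of the libraries with few genes at 0.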

How the results depend on the processing

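The number of members called, 0 in each genotype comparison, changed under some settings. For WT against *Ahr*-/- it was 1 (*Psmc3*) with sample weights (adjusted p 0.0426), with exon length bins centred (0.0407) and without both libraries with few genes at 0 (0.0450), and 0 to 1 when leaving out each sample in turn, the 1 being without *Ahr*-/- F3 (0.0327). For *Ahrr*-/- against *Ahr*-/- it was 1 with sample weights (*Psmb10*, 0.0277), 2 with all 18 samples in the fit (*Psma3*, 0.0472, and *Psmb10*), 1 with length bins centred (*Psmb10*, 0.0447), and 0 to 3 when leaving out each sample, the 3 being without *Ahr*-/- F3 and 2 without *Ahrr*-/- F1. For WT against *Ahrr*-/- it was 0 to 0 (limma, 2 at an unadjusted p below 0.05 and 3 by voom). Over the samples left out, adjusted p ran from 0.0327 to 0.184 for *Psmc3* in the first comparison and from 0.0271 to 0.132 for *Psmb10* in the last. The cause was not tested.

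The members' median kept its sign between genotypes whichever sample was left out, at 0.04 to 0.13 for WT against *Ahr*-/-, -0.14 to -0.02 for WT against *Ahrr*-/- and 0.10 to 0.23 for *Ahrr*-/- against *Ahr*-/-. Over every alternative, processing settings and samples left out together, single members' differences had the other sign in 50 of 1210, 67 of 1186 and 27 of 1163 values. A replicate block in place of sex called 0 members in each comparison, and replicate numbers were not found to pair the samples.

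The 6 samples a group limit these values, and the parts of depth and of other cells' transcripts in them were not tested. Intervals within 1.5-fold bound the larger shifts only. Counts from overlapping genes and from the copy *Psme2b* are uncertain, and transcript levels do not give the amount or activity of proteasomes.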
